A study of Mus musculus with 16 samples.

Results

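The genes described here encode the proteins of the cytosolic ribosome (RP genes). They were taken as the rows of the count tables whose symbol is Rpl or Rps followed by a number, with an optional a or x, or is Rplp0, Rplp1, Rplp2 or Rpsa, and whose mean over the libraries was at least 10 CPM (counts scaled to a common library total). Of 76 rows that fitted the symbols, 58 reached this level and are the members, among 9758 genes of the series at that level and 54658 rows in all. They are 33 genes of the large subunit, 22 of the small subunit and the 3 genes of the acidic stalk. The values just inside the limit were 10.0 CPM for Rps16, 10.23 CPM for Rpl36a and 10.42 CPM for Rps28, and those just outside it were 9.966 CPM for Rpl31, 9.316 CPM for Rps6 and 9.192 CPM for Rpl27.

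The cells were C17.2α, mouse cerebellar neural cells that carry an added TRα1 receptor for thyroid hormone and were grown in serum stripped of thyroid hormones. All were treated for 24 h, either with DMSO alone, the solvent, or with a strobilurin, a fungicide of the class that blocks complex III of the mitochondrial respiratory chain. DMSO has 2 libraries. Each of picoxystrobin, pyraclostrobin and trifloxystrobin has 1 library at 30, 100, 300 and 1000 nM, and azoxystrobin has 1 at 100 nM and 1 at 1000 nM. The line is a single engineered line, and no concentration was repeated, so the libraries of a compound stand in for replicates, and p-values measure the spread between these libraries, which includes any response to concentration. The labels do not tell whether libraries came from separate cultures.

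Each ribosome holds a single copy of nearly every RP, so cells keep the output of RP genes balanced, largely through translation of their mRNAs, which begin with a run of pyrimidines (the 5′ TOP). RP made in excess is degraded, and free Rpl5 and Rpl11, with the small RNA of the large subunit, bind Mdm2 and link ribosome assembly to p53. Mammalian RP mRNAs are short, abundant and often copied back into the genome, so that each intron-containing RP gene is accompanied by intronless processed pseudogenes of nearly the same sequence.

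This shared sequence bears on what a row of the count table holds. Of 197 windows of 50 bases that span an exon junction of the coding part of a member's transcript (25 bases on each side, GENCODE M21), 104 were found unbroken in a pseudogene row named for the same gene, and 34 of the 58 members had at least 1 such window. Examples follow for 5 members whose pseudogene rows carried more counts than the gene, with the bases of the upstream exon in lower case and those of the downstream exon in capitals.
Rpl10a, exons 2 and 3: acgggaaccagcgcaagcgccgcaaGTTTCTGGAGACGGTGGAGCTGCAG
Rpl14, exons 2 and 3: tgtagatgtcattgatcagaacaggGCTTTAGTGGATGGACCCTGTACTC
Rpl3, exons 2 and 3: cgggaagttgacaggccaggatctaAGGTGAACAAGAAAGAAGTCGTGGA
Rpl36a, exons 2 and 3: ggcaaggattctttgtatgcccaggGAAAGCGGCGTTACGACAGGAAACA
Rps24, exons 2 and 3: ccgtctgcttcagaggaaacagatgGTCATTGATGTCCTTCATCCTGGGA
In the genome (GRCm38) the same 50 bases lie without a gap in Rpl10a-ps1 at chr1:64994500-64994549 on the minus strand, in Rpl14-ps1 at chr7:45325045-45325094 on the plus strand, in Rpl3-ps1 at chrX:13202743-13202792 on the plus strand, in Rpl36a-ps2 at chr3:145879104-145879153 on the plus strand and in Rps24-ps3 at chrX:79195091-79195140 on the plus strand. The genes themselves lie on chromosomes 17, 9, 15, X and 14. How the aligner treated reads over such junctions is not given in the sources used here, so the split of counts between an RP gene and its pseudogenes is uncertain.

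Some facts of the series touch all values. The total count ranged from 12292390 to 18188099 per library, with a median of 16180381 over 15 libraries. Azoxystrobin at 100 nM and the DMSO library numbered 2 held the same count at every row and were counted as 1 sample, under the DMSO label, which the labels alone cannot settle, so azoxystrobin rests on the library at 1000 nM. Mitochondrially encoded genes took 7.93% to 12.7% of the counts. The neural progenitor markers Nes (165 CPM), Vim (2840 CPM), Cdh2 (199 CPM) and Sox2 (39.6 CPM) were present, whereas Pax6 (0.0464 CPM) was near 0 and Rbfox3 of neurons, Aqp4 of astrocytes and Ptprc of microglia were at 0. The neuronal gene Map2 (129 CPM) was present. The fibroblast collagens Col1a1 (3210 CPM) and Col1a2 (960 CPM) were high in these cells. The library of picoxystrobin at 1000 nM stood apart from the other picoxystrobin libraries, and values that moved when it was left out are given with and without it.

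RP levels were compared as CPM per kb of transcript. Among the highest were Rplp1 (1460 CPM per kb), Rplp0 (1230 CPM per kb), which anchors the stalk that recruits elongation factors, Rpl41 (1190 CPM per kb) and Rpl8 (1170 CPM per kb). The lowest members were Rpl21 (7.80 CPM per kb), Rps16 (9.02 CPM per kb) and Rpl9 (16.7 CPM per kb), although the assembled ribosome holds them in equal number. Without length, Rplp0 had the most counts (1671 CPM) and Rpl8 had 999.5 CPM, and over all libraries the 10 highest members held 64.1% of all counts on members. In the DMSO libraries the large subunit took 40.6% of these counts, the small subunit 40.5% and the stalk 18.9%.

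Of the 50-base windows of Rpl9, 93.3% were also found in a transcript of another gene, against 7.86% for Rpl8. Over the 76 rows, the level per kb had a Spearman rho of -0.36 with the percent of windows shared, which is a description across genes. The median row under the limit shared 68.4% of its windows and had 10.1 CPM per kb, against 45.7% and 84.2 CPM per kb for the median member. Rpl5 (8.022 CPM) and Rpl11 (2.099 CPM), the Mdm2-binding proteins, and Rps6 (9.316 CPM), the substrate of S6 kinase, were among these 18 rows and were left out of the tests. Their values overlapped between DMSO and the exposed libraries. Rpl5 had 7.52 and 9.93 TMM-scaled CPM (defined with the comparisons) in DMSO and 5.05 to 9.83 in the others, Rpl11 had 2.87 and 2.35 against 1.33 to 2.66, and Rps6 had 8.37 and 9.81 against 6.16 to 13.2. In 14 of the 58 members the named pseudogene rows held more counts than the gene. The row of Rpl10a held 37.3 CPM and its pseudogene rows 1900 CPM, and the same pair of values was 274 and 1370 CPM for Rpl14, 10.23 and 678 CPM for Rpl36a, and 10.0 and 270 CPM for Rps16. Whether a low row reflects a low level of the RP mRNA was not tested.

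**Figure D1:**
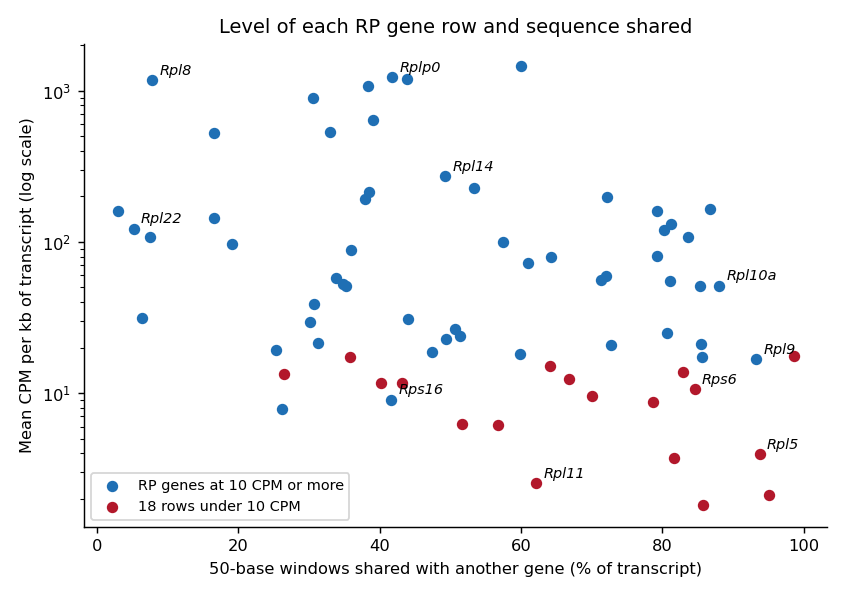
Mean CPM per kb of transcript (log scale) of rows that fit the RP symbols against the percent of their 50-base windows found in transcripts of other genes. Rows under 10 CPM (red) lie mostly at the right, where windows are shared. Of the 58 RP genes 55 are plotted.

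The share of all counts that fell on the 58 members was 1.216% and 1.237% in the DMSO libraries. It was 1.393% for azoxystrobin at 1000 nM. For picoxystrobin it was 1.325%, 1.286%, 1.222% and 1.342% from 30 to 1000 nM, for pyraclostrobin 1.398%, 1.414%, 1.353% and 1.285%, and for trifloxystrobin 1.268%, 1.295%, 1.296% and 1.344%. All but picoxystrobin at 300 nM among the 13 exposed libraries lay above both DMSO libraries. The means were 1.227% ± 0.0148 (SD, n = 2) for DMSO, 1.294% ± 0.0533 (SD, n = 4) for picoxystrobin, 1.363% ± 0.0578 (SD, n = 4) for pyraclostrobin and 1.301% ± 0.0316 (SD, n = 4) for trifloxystrobin. The 296 rows named as RP pseudogenes held 0.625% and 0.670% in DMSO and between 0.706% and 0.831% in the exposed libraries, with no overlap. In RNA from whole cultures, a change in the number of cells of a type and a change in RNA per cell cannot be told apart.

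**Figure D2:**
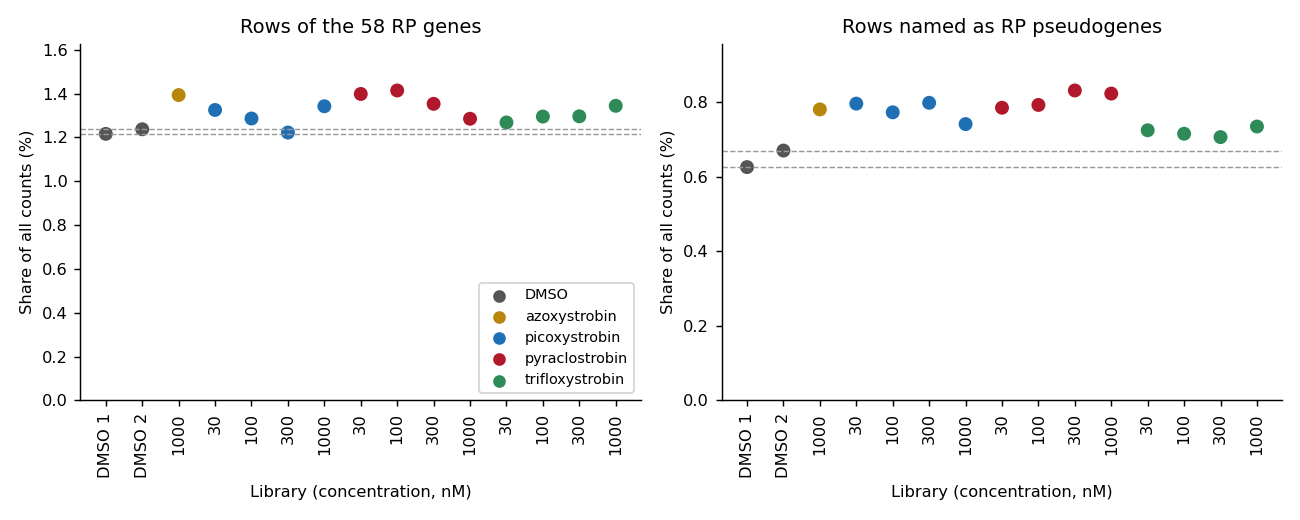
Share of all counts per library on the 58 RP genes (left) and on the rows named as RP pseudogenes (right), with axes from 0 and dashed lines at the values of both DMSO libraries. For the RP genes the exposed libraries lie between 1.222% and 1.414%, and for the pseudogene rows all of them lie above both DMSO libraries.

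Pyraclostrobin, the methoxycarbamate of the series, was the compound with members called against DMSO by edgeR with all libraries. Rpl22, a large-subunit protein that also binds RNA outside the ribosome, and Rpl14, at the surface of the large subunit, rose. The members called (adjusted p under 0.05 over the 9758 genes) were 3 of 58 or 5.17%, all higher, against 2.12% of all genes tested (207 genes) and 0.461% called higher (45 genes). No member was called lower in this fit, while 162 of all genes were. The median log2 change of the members was 0.18 and that of all genes 0.0028, with 43 of 58 members above 0.

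Rpl22 had 191 and 196 TMM-scaled CPM (CPM after a correction of the library size for composition) in DMSO, and 277, 270, 308 and 299 at 30, 100, 300 and 1000 nM pyraclostrobin. Every pyraclostrobin library was above both DMSO libraries, and the log2 change was 0.58 ± 0.088 (SE), a fold of 1.49 (edgeR, adjusted p = 0.027). With picoxystrobin it had 275, 251, 285 and 262, again above DMSO at each concentration (log2 change 0.47, adjusted p = 0.079). With trifloxystrobin it had 223, 251, 217 and 230 (log2 change 0.25, adjusted p = 1.0) and with azoxystrobin 228. Only 5.19% of the windows of Rpl22 are shared with another gene, and its 1 pseudogene row held 13.9 CPM against 250.8 CPM for the gene.

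Rpl14 had 218 and 246 in DMSO and 296, 300, 327 and 294 with pyraclostrobin (log2 change 0.39 ± 0.080 SE, adjusted p = 0.034). All 4 values exceeded DMSO. With picoxystrobin it had 282, 277, 277 and 276, also above DMSO and nearly constant (log2 change 0.26, adjusted p = 0.16). The row of Rpl14-ps1, which holds the junction sequence printed above, had 1080 and 1180 in DMSO and 1340 to 1580 with pyraclostrobin (log2 change 0.35, adjusted p = 0.090). Gene and pseudogene rows thus differed from DMSO in the same direction.

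Rpl13 (log2 change 0.43, adjusted p = 0.095), Rps4x (0.40, 0.096) and Rpl32 (0.26, 0.080) did not pass the threshold. Rpl4, whose loop reaches into the exit tunnel, had 674 and 744 in DMSO and 813, 815, 869 and 844 with pyraclostrobin. It was above DMSO at each concentration (log2 change 0.24, adjusted p = 0.099). By DESeq2, 11 members were called for pyraclostrobin, all higher, where 3.74% of all genes were called higher. The 3 calls of edgeR were lost when either DMSO library, picoxystrobin at 30 or 100 nM, or pyraclostrobin at 300 or 1000 nM was left out. In those fits at most 1 of all genes was called, against 207 with all libraries. Without trifloxystrobin at 300 or 1000 nM, Rpl22 alone of the members was called, with 20 and 61 of all genes called. Without picoxystrobin at 1000 nM, which enters the common estimate of the spread, 14 members were called for pyraclostrobin, all higher, with 4.56% of all genes called higher.

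**Figure D3:**
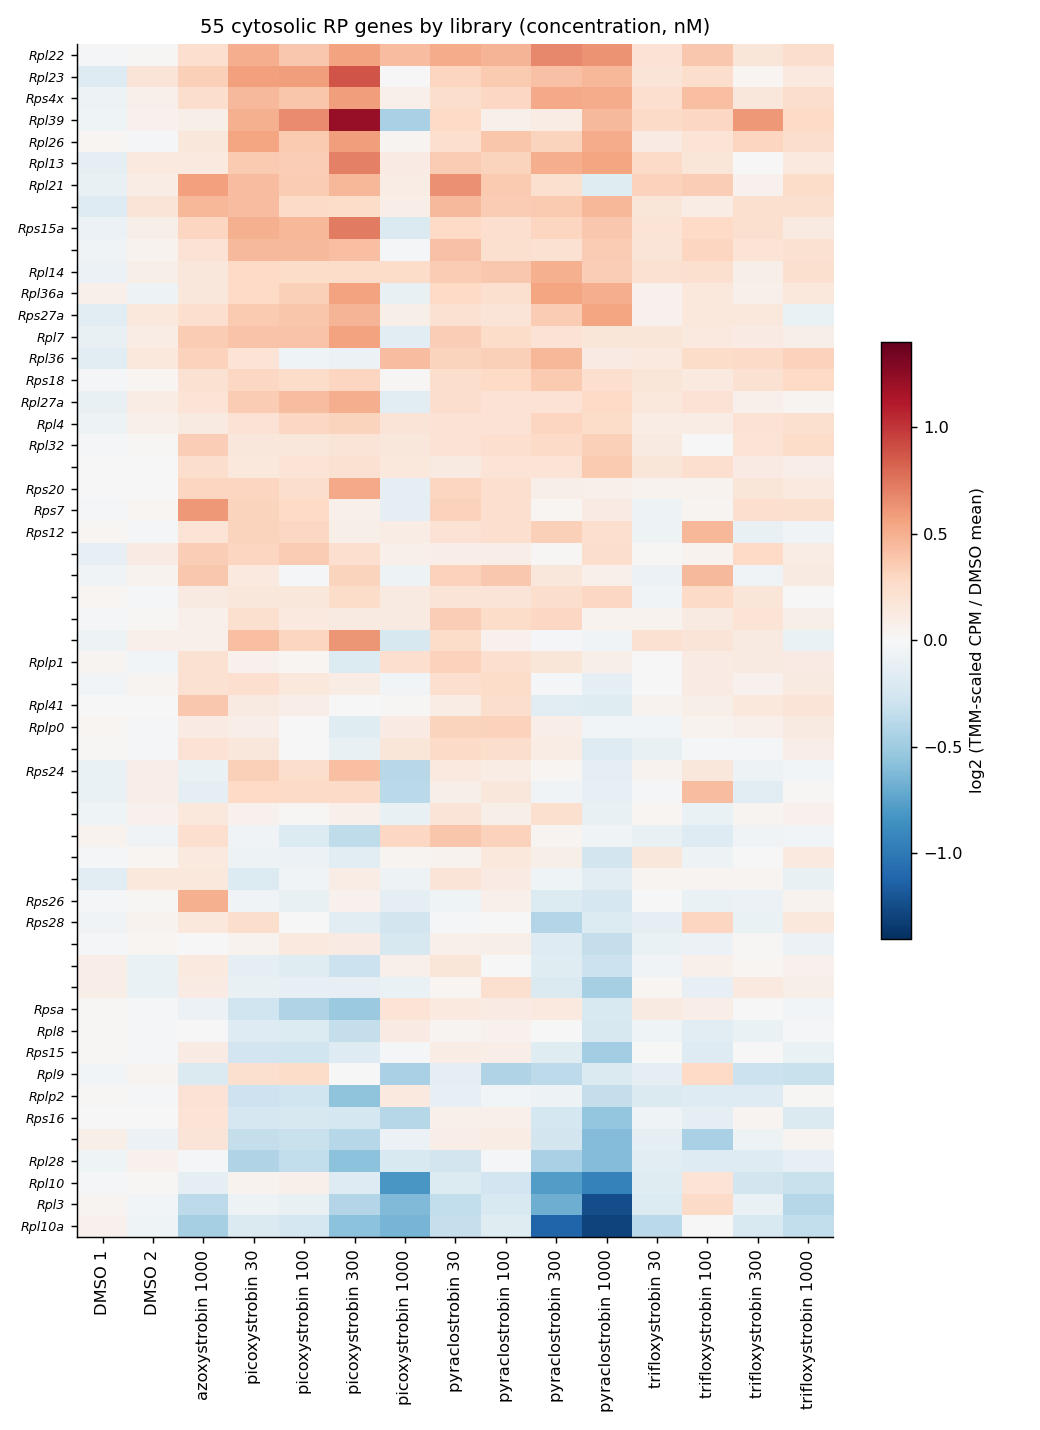
log2 ratio of TMM-scaled CPM to the DMSO mean for 55 of the 58 RP genes (rows, those named in the text labelled, ordered by their mean over exposed libraries) in 15 libraries (columns). Most rows are above DMSO (red) in most exposed libraries, and Rpl10, Rpl3 and Rpl10a, in the lowest rows, are below it in most, with their lowest values at 1000 nM pyraclostrobin.

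For picoxystrobin, a methoxyacrylate, 0 members were called by edgeR, 17 had an unadjusted p under 0.05, and DESeq2 called 4, all higher, among them Rpl4, Rpl14 and Rpl22. Of all 9758 genes, edgeR called 4 (0.0410%), 1870 had an unadjusted p under 0.05, and DESeq2 called 0.728% higher. The median log2 change of the members was 0.13 and of all genes 0.0073, with 41 of 58 members above 0. The library at 1000 nM decided the calls. Without it 23 members were called, 20 higher and 3 lower, where 12.8% of all genes were called higher and 14.5% lower.

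Rpl39, the small protein of the exit tunnel, shows this split. It had 68.0 and 73.4 TMM-scaled CPM in DMSO and 99.8, 112, 165 and 51.5 from 30 to 1000 nM picoxystrobin, so that 3 concentrations were above DMSO and the highest below (log2 change 0.60 ± 0.29 SE, adjusted p = 0.28, and 0.83 ± 0.18 with adjusted p = 0.0080 without 1000 nM). Rpl23 had 39.1 and 50.5 in DMSO and 66.2, 66.8, 82.0 and 44.5 with picoxystrobin (0.54, adjusted p = 0.17, and 0.68, adjusted p = 0.0039, without 1000 nM). In the opposite direction, Rpsa, the laminin-receptor protein of the small subunit, had 62.0 and 60.2 in DMSO and 50.4, 45.5, 42.6 and 69.8 with picoxystrobin. Its log2 change was -0.23 (adjusted p = 0.42), and -0.40 (adjusted p = 0.016) without 1000 nM. Rpl28 (-0.45, adjusted p = 0.028) and the stalk protein Rplp2 (-0.37, adjusted p = 0.027) were also called lower without this library. For Rpl28 only the call depended on it. Rpl28 was below both DMSO libraries at each picoxystrobin concentration, 1000 nM included (-0.38, adjusted p = 0.19 with all libraries). Rplp2 was above DMSO at 1000 nM, with 44.5 against 41.0 and 39.9 (-0.22, adjusted p = 0.39 with all libraries). With an offset for GC content and length as well (a trend on both, fitted in each library), 9 members were called, all higher, so these 3 lower calls were lost. Of all 9758 genes, 98 were called higher and 83 lower in that fit, against 1249 and 1415 without the offset. Rps27a, made as a fusion with ubiquitin, had 36.6 and 44.8 in DMSO and 52.1, 53.1, 56.1 and 42.7 with picoxystrobin, where the highest concentration lay between the DMSO values (0.33, adjusted p = 0.22).

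Azoxystrobin, the other methoxyacrylate, has 1 independent library, at 1000 nM, which was assumed to vary like the other groups. By edgeR no member and no gene was called, and DESeq2 also called no member. The median log2 change was 0.19, with 50 of 58 members above 0. Rps26, of the mRNA exit region, stood out with 1050 TMM-scaled CPM against 733 and 753 in DMSO. No library of another compound exceeded 779 (log2 change 0.50 ± 0.13 SE, unadjusted p = 0.0016, adjusted p = 1.0). Rps7 was 23.6 against 15.2 and 15.9 in DMSO (0.60 ± 0.19 SE) and Rpl21 was 17.8 against 11.1 and 12.8 (0.57 ± 0.25 SE). Both were above DMSO and neither passed the threshold.

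Trifloxystrobin, an oximinoacetate, gave a median of 0.10, with 43 of 58 members above 0. edgeR and DESeq2 each called 0 members (0.00% of all genes by edgeR). Of all 9758 genes 124 had an unadjusted p under 0.05, and so did 4 members. Among these were Rpl22, Rpl14 and Rps18, with log2 changes of 0.25, 0.19 and 0.20 (edgeR, adjusted p = 1.0 for each). Rps18 had 78.7 and 82.2 TMM-scaled CPM in DMSO and 90.3, 88.4, 93.3 and 97.7 with trifloxystrobin, which are all above DMSO (log2 change 0.20, adjusted p = 1.0).

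Counted by libraries that do not overlap, 27 of 58 members (46.6%) were higher than both DMSO libraries at each pyraclostrobin concentration, against 18.8% of all genes tested, and 5 members (8.62%) were lower, against 22.0%. For picoxystrobin 13 members (22.4%) were higher, against 12.1%, and 6 (10.3%) lower, against 14.5%. For trifloxystrobin 14 members (24.1%) were higher, against 7.05%, and 2 (3.45%) lower, against 8.75%. In the single azoxystrobin library 46 members (79.3%) were higher, against 30.9%, and 6 (10.3%) lower, against 41.0%. The 4 compounds share the DMSO libraries, so these counts are not independent of each other. The members' counts stood above the background for higher values and below it for lower values with each compound. These counts are without the offset for GC content and length. The median transcript was 873 bases for the members and 3069 bases for all tested genes, and other short transcripts were also above DMSO, as given below. No such count was made among genes of like length.

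Rpl10a, Rpl3 and Rpl10 had the lowest log2 changes with pyraclostrobin, all below 0. Rpl10a encodes uL1, the mobile protein of the L1 stalk, Rpl3 lines the peptidyl transferase centre, and Rpl10 joins the large subunit last in its maturation. Rpl10a had 49.8 and 45.7 TMM-scaled CPM in DMSO and 38.2, 42.3, 22.0 and 19.4 from 30 to 1000 nM pyraclostrobin. All 4 were below DMSO, the 2 higher concentrations most (log2 change -0.65 ± 0.25 SE, unadjusted p = 0.018, adjusted p = 0.12). Rpl3 had 28.7 and 27.1 in DMSO and 22.0, 24.1, 17.4 and 11.8 with pyraclostrobin (-0.58 ± 0.24 SE, adjusted p = 0.15). Rpl10 had 50.4 and 51.6 in DMSO and 44.5, 42.3, 29.7 and 26.5 with pyraclostrobin (-0.52 ± 0.23 SE, adjusted p = 0.18). None of these changes passed the threshold. In a fit without a filter on low counts all 3 genes were called lower, the only members called lower there, where 1.99% of all genes were. Of their 50-base windows, 88.1%, 85.6% and 85.4% are shared with other genes. Such a share is not particular to them. Rps18 (86.7%) and Rpl36a (85.5%) were above both DMSO libraries at each pyraclostrobin concentration. The median log2 change with pyraclostrobin was 0.18 for the 29 members with more shared windows than the median member, and also 0.18 for the other 29.

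The pseudogene rows of Rpl10a and Rpl3 had values above DMSO with pyraclostrobin, where the genes were below it. Those of Rpl10 did not show this. Its 6 pseudogene rows together held 5.5 and 4.64 TMM-scaled CPM in DMSO and 6.11, 4.0, 3.98 and 4.17 from 30 to 1000 nM pyraclostrobin. Rpl10a-ps1 had 1560 and 1700 TMM-scaled CPM in DMSO and 1960, 1990, 2090 and 2060 with pyraclostrobin, and it rose (log2 change 0.31, adjusted p = 0.049, and 0.24, adjusted p = 0.092, with an offset for GC content and length). Rpl3-ps1 had 132 and 123 in DMSO and 166, 162, 152 and 149 with pyraclostrobin (0.30, adjusted p = 0.059). The gene's part of the summed counts of gene and pseudogene rows was 3.09% and 2.62% in DMSO for Rpl10a and 0.931% at 1000 nM pyraclostrobin. For Rpl3 it was 17.8% and 17.9% in DMSO and 7.29% at 1000 nM pyraclostrobin. At 1000 nM azoxystrobin, picoxystrobin and trifloxystrobin it was also lower, at 1.69%, 1.51% and 2.02% for Rpl10a and 12.1%, 10.2% and 11.9% for Rpl3. At 100 nM trifloxystrobin it was 2.71% and 17.8%, no lower than both DMSO libraries. For Rps24 it was 21.2% and 21.1% in DMSO and 14.1% to 18.9% in the exposed libraries. For Rpl14 it was 16.8% and 17.3% in DMSO and 15.6% to 18.4% with pyraclostrobin, which overlaps DMSO. The part of alignment in these values was not tested. Of the 34 pseudogene rows tested, 3 were called for pyraclostrobin, all higher (Rpl10a-ps1, Rpl36a-ps2 and Rps12-ps1), with a median log2 change of 0.29 over the 34. With the offset none of the 3 was called, and Rpl36a-ps2 moved from 0.52 to 0.29 (adjusted p = 0.083) and Rps12-ps1 from 0.53 to 0.34 (adjusted p = 0.057). Their medians were 0.30 for azoxystrobin, 0.25 for picoxystrobin and 0.11 for trifloxystrobin, with 0 called.

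**Figure D4:**
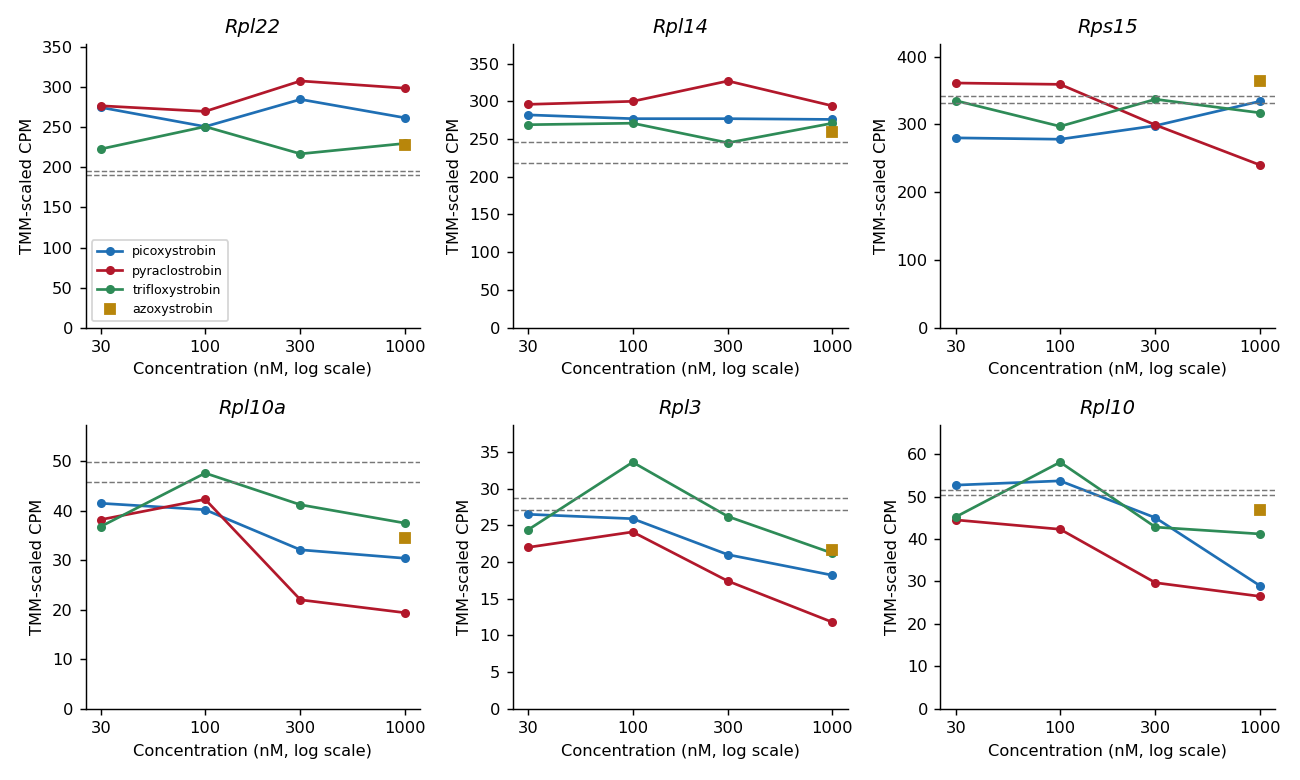
TMM-scaled CPM of 6 RP genes against concentration (nM, log scale), 1 library per point, with dashed lines at both DMSO libraries and the y axes from 0. Rpl22 stays above DMSO at each concentration, and Rpl10a, Rpl3 and Rpl10 are lowest with pyraclostrobin at 1000 nM.

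Over picoxystrobin, pyraclostrobin and trifloxystrobin, no member was called for a slope on log10 concentration by edgeR (0.00% of all genes). An unadjusted p under 0.05 was found for 7 members and 1395 of the 9758 genes. DESeq2 called 2 members, Rpl10 and Rpl3, both lower, where it called 0.543% of all genes lower. The median slope of the members was -0.052 log2 units for each 10-fold rise in concentration, and 44 of 58 slopes were below 0. By edgeR the smallest p-values were those of Rpl10 (-0.42 ± 0.10 SE, adjusted p = 0.20), Rpl3 (-0.40 ± 0.11 SE, adjusted p = 0.20) and Rpl21 (-0.26 ± 0.087 SE, adjusted p = 0.25).

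Within pyraclostrobin the median slope was -0.15 and 37 of 58 slopes were below 0, against a median of 0.00051 for all genes. edgeR called 0 members and 0 genes (0.00%), with 15 members and 1889 of the 9758 genes at an unadjusted p under 0.05. DESeq2 called 7 members, all lower, where it called 2.68% of all genes lower. Rpl10a had a slope of -0.77 ± 0.18 SE (adjusted p = 0.070), Rps15 of -0.40 ± 0.10 SE (adjusted p = 0.078) and Rpl21 of -0.51 ± 0.13 SE (adjusted p = 0.085). Rps15, at the head of the small subunit, had 361, 359, 299 and 240 TMM-scaled CPM from 30 to 1000 nM pyraclostrobin, with 342 and 332 in DMSO, so that the 2 lower concentrations were above DMSO and the 2 higher below. Without picoxystrobin at 1000 nM, 13 members were called for this slope, all lower, where 6.20% of all genes were called lower. The median slope was -0.095 for picoxystrobin, or -0.012 without its library at 1000 nM, and 0.023 for trifloxystrobin, with 0 members called in either by edgeR or DESeq2. The edgeR test that the 3 slopes differ called 0 members and 0 genes (0.00%), with 7 members and 600 genes at an unadjusted p under 0.05. Among the members the smallest value was that of Rps15 (adjusted p = 0.74).

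The 3 compounds were compared at matched concentrations, in 3 pairs, with concentration as a block. In pyraclostrobin against picoxystrobin, a methoxycarbamate against a methoxyacrylate, edgeR called 0 members and 2 genes (0.0205%). An unadjusted p under 0.05 was found for 2 members and 1145 of the 9758 genes, and the median difference of the members was 0.044. In trifloxystrobin against picoxystrobin, an oximinoacetate against a methoxyacrylate, edgeR called 0 members and 0 genes (0.00%). Here 3 members and 843 genes had an unadjusted p under 0.05, and the median was -0.031. In pyraclostrobin against trifloxystrobin edgeR called 0 members and 3 genes (0.0307%), 8 members and 1757 genes had an unadjusted p under 0.05, and the median was 0.070. DESeq2 called 2 members in the last pair, where it called 2.31% of all genes, and 0 in the others. Without picoxystrobin at 1000 nM the median of the first pair was -0.015, with 15 members and 2992 of the 9758 genes at an unadjusted p under 0.05. With the offset for GC content and length that median was -0.019, so its direction turned in both fits. With 1 library left out in turn, the median of the second pair ranged from -0.092 to 0.0036 and that of the last from 0.032 to 0.11.

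The members that differed most between compounds were Rpl3, lower with pyraclostrobin than trifloxystrobin by -0.51 (95% interval -0.78 to -0.25, adjusted p = 0.16, and 0.48 when multiplied by 3 for the pairs), Rpl22, higher by 0.32 (0.14 to 0.51, adjusted p = 0.16), and Rpl10, lower by -0.41 (-0.68 to -0.15, adjusted p = 0.18). Between pyraclostrobin and picoxystrobin, Rpl10 differed by -0.33 (-0.60 to -0.066, adjusted p = 0.37) and Rpl3 by -0.31 (-0.58 to -0.043, adjusted p = 0.37). The 95% interval lay within a 1.5-fold difference in either direction for 53, 55 and 53 of the 58 members in the 3 pairs as ordered above, and for the others larger differences were not excluded by these libraries. Without picoxystrobin at 1000 nM, trifloxystrobin differed from picoxystrobin in 7 members, 6 lower (Rpl23, Rps15a, Rps27a, Rpl26, Rpl7 and Rpl27a) and Rpsa higher, with 13.3% of all genes called.

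At each concentration, with the 3 compounds as replicates, 0 members and 0 genes (0.00%) were called against DMSO by edgeR, and DESeq2 called 0 members. The median log2 change of the members was 0.14 at 30 nM, 0.18 at 100 nM, 0.13 at 300 nM and 0.064 at 1000 nM, with 46, 45, 39 and 35 of 58 members above 0. An unadjusted p under 0.05 was found for 6, 9, 15 and 10 members, and for 237, 264, 1236 and 1053 of the 9758 genes. Rpl22 was among the 3 smallest p-values at each concentration, with log2 changes of 0.42, 0.41, 0.48 and 0.45 (adjusted p = 0.91, 0.91, 0.39 and 0.44). Its difference from DMSO was thus of like size from the lowest concentration on.

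Transcript length and GC content moved with these values. The median transcript of the members was 873 bases with 51.7% GC, against 3069 bases and 49.5% for all tested genes. Across all 9725 tested genes with a transcript, the change from DMSO had a Spearman rho with length of -0.41 for azoxystrobin, -0.13 for picoxystrobin, -0.28 for pyraclostrobin and -0.13 for trifloxystrobin, and with GC content of -0.24, -0.67, -0.36 and -0.42, which describe these libraries across genes that are not independent. Even the 2 DMSO libraries differed from each other along GC content, with a rho of 0.43 in size. Among the other genes, the 606 with transcripts from 500 to under 1000 bases had median log2 changes of 0.15 with azoxystrobin, 0.050 with picoxystrobin, 0.14 with pyraclostrobin and 0.014 with trifloxystrobin. The 29 members of this length had 0.20, 0.11, 0.22 and 0.098. Below 500 bases the 228 other genes had 0.21, 0.13, 0.19 and 0.048, and the 5 members 0.21, 0.12, 0.30 and 0.11. Short transcripts outside the module were thus also above DMSO, and in the shortest class they were level with the members for azoxystrobin and picoxystrobin.

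Within the members, the 20 with 45 to 50% GC had a median change of 0.25 with picoxystrobin and the 28 with 50 to 55% GC one of 0.014, and the rho with GC content over the 58 members was -0.33. Over single libraries this rho was -0.38, -0.43 and -0.49 at 30, 100 and 300 nM picoxystrobin and 0.37 at 1000 nM, so the library that stood apart had the opposite order. The extremes follow this order only in part. Rps20, with the lowest GC content (41.3%), had 437, 421, 515 and 326 TMM-scaled CPM with picoxystrobin against 353 and 358 in DMSO, and Rpl8, among the 3 highest in GC content, had 920, 917, 829 and 1130 against 1060 and 1030. Rpl36, with the highest GC content (60.8%) and the shortest transcript (383 bases), had 17.3 to 24.7 against 16.5 and 20.4, and Rps15a, with the longest transcript (5179 bases), had 189, 185, 222 and 117 against 127 and 142.

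When a trend on GC content and length was fitted in each library and entered as an offset, the median change of the members was 0.079 with azoxystrobin, 0.060 with picoxystrobin (0.10 without its library at 1000 nM), 0.060 with pyraclostrobin and 0.067 with trifloxystrobin. Of the 58 members, 44, 38, 37 and 43 had a value above 0. Rpl22 (log2 change 0.50, adjusted p = 0.018) and Rpl14 (0.30, adjusted p = 0.043) were still called for pyraclostrobin. Rpl10a (-0.71), Rpl10 (-0.71) and Rpl3 (-0.64) had values at least as far from 0 as without the offset. By library, the corrected median for pyraclostrobin was 0.12, 0.11, 0.0024 and -0.092 from 30 to 1000 nM, where the uncorrected one was 0.21, 0.22, 0.12 and 0.060.

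**Figure D5:**
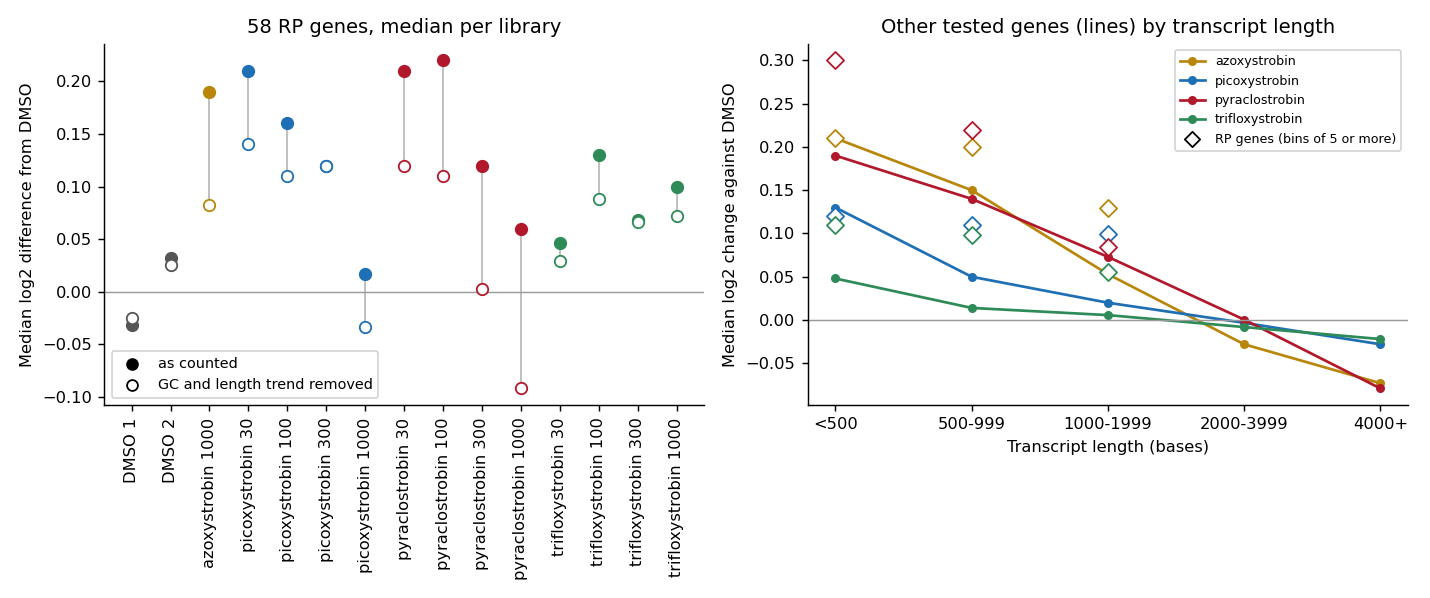
Left, median log2 difference of the 58 RP genes from the DMSO mean in each library, before (filled) and after (open) a trend on GC content and transcript length was removed. Right, median log2 change against DMSO by transcript length for the other tested genes (lines) and for RP genes (diamonds). Short genes of both kinds lie above 0, and the corrected RP medians are nearer 0 in most exposed libraries.

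The parts of the ribosome differed little in their medians. With pyraclostrobin the median log2 change was 0.22 for the large subunit (2 of 33 called), 0.18 for the small subunit (1 of 22 called) and 0.18 for the stalk (0 of 3 called). With picoxystrobin these medians were 0.12, 0.16 and 0.012. Within the stalk, Rplp0 had 1970, 1980, 1690 and 1540 TMM-scaled CPM from 30 to 1000 nM pyraclostrobin against 1620 and 1550 in DMSO, Rplp1 had 844, 798, 760 and 715 against 694 and 660, and Rplp2 had 37.4, 39.5, 38.6 and 32.1 against 41.0 and 39.9. Rplp1 was above DMSO and Rplp2 below it in each, and none passed the threshold. The 26 members that host a noncoding RNA gene in the annotation, mostly small nucleolar RNAs in introns, had a median of 0.20 with pyraclostrobin and the other 32 members 0.18.

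Other lists, mostly of the translation machinery, were set beside the members. The list of 5′ TOP mRNAs also holds Rack1, Rps3a1 and Fau, ribosomal proteins outside the symbol rule, and other mRNAs such as Vim. It is therefore not a list free of RP genes. Of 20 tested mRNAs that share the 5′ TOP, such as elongation factors, 0 were called for any compound and the medians were 0.12 for azoxystrobin, 0.0083 for picoxystrobin, 0.13 for pyraclostrobin and 0.061 for trifloxystrobin. Of 28 tested ribosome biogenesis genes, 1 was called, lower, for pyraclostrobin, and the medians were -0.080, -0.10, -0.092 and -0.036, opposite in sign to those of the members. Of 71 tested mitochondrial RP genes, 0 were called and the medians were 0.095, 0.044, 0.14 and 0.021. With each compound the median of the 58 members was higher than that of these 3 lists. It was lower than that of the 34 tested pseudogene rows (0.30, 0.25, 0.29 and 0.11 in the same order). All these medians are without the offset for GC content and length.

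Core proteins whose symbols fall outside the rule are given next. Rack1, the kinase receptor of the small subunit, was the most abundant at 2642 CPM and had 2840, 2990, 3100 and 2790 TMM-scaled CPM with pyraclostrobin against 2260 and 2290 in DMSO, which are all higher (log2 change 0.37, adjusted p = 0.055). Rps3a1 had 169, 169, 186 and 208 against 114 and 125 (0.62, adjusted p = 0.081). Fau, made as a fusion with a ubiquitin-like protein, was at 10.86 CPM. Among the paralogs, Rps27l, a known p53 target, had 206, 173, 249 and 307 with pyraclostrobin against 124 and 152 (0.76, adjusted p = 0.083). Rpl22l1, which can replace Rpl22, had 70.1, 89.2, 122 and 34.1 with picoxystrobin against 38.9 and 54.2 (0.76, adjusted p = 0.25), and 56.9, 40.5, 50.1 and 63.6 with pyraclostrobin, where Rpl22 rose. With the offset for GC content and length, Rps27l had 0.47 with pyraclostrobin, and Rpl22l1 had 0.34 with picoxystrobin and turned from 0.18 to -0.14 with pyraclostrobin. Rpl39l and Rpl10l had no counts.

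Some annotated starts of the members show the pyrimidine runs of the class. In RefSeq windows from 10 bases before to 20 bases after an annotated start (GRCm38.p6, sense strand), a run of at least 8 letters that are C or T was found for 18 of the 42 members with an entry (42.9%), and for 13% of the 27025 genes in the table. Windows of 15 bases on each side of the start are shown for both named members that rose and for Rpl10, with runs in capitals.
Rpl14, chr9:120571502-120571531, plus strand: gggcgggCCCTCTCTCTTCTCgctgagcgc
Rpl22, chr4:152325711-152325740, plus strand: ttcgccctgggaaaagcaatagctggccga
Rpl10, chrX:74270801-74270830, plus strand: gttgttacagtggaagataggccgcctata
Rpl22 has another annotated start, also without a run. The absence of a run says only that these letters are not in this window of an annotated start.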

How the data were processed

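The authors prepared libraries from total RNA, sequenced them and deposited raw counts per gene for each library. Bowtie2 2.3.2.2 and mm10 are named in the submitters' processing notes, and counting was by htseq-count. The strand setting and annotation are not given in the sources used here. Counts were TMM-scaled and tested with edgeR 4.0.16 (quasi-likelihood, R 4.3.3) on genes with a mean of at least 10 CPM over 15 libraries, with Benjamini-Hochberg adjustment over all 9758. A prior count of 2 was added for log2 values. DESeq2 1.42.0 was an alternative. The offset for GC content and length used natural splines (4 df each) on GENCODE M21 transcripts (APPRIS principal first), found for 9725 tested genes. On simulated counts for 9758 genes, 100% of 2-fold changes and 64% of 1.5-fold changes were called for pyraclostrobin, and 62% of the latter for picoxystrobin, with 6.29% and 2.99% of calls false. The simulation gave all genes the same spread, with no response to concentration and no trend on GC content or length. It therefore does not tell how often changes of noisier genes would be called in these libraries. The members and lists were chosen with earlier results of these data known. Named members were those with the 5 smallest p-values and the 3 highest and lowest changes for each compound, the 3 smallest p-values of the slope and of each pair, the 3 extremes of level, length and GC content, and Rpl5, Rpl11, Rplp0, Rplp1, Rplp2, Rps6, Rpsa and Rps27a. Rps24, Rpl26, Rpl27a, Rpl7 and Rpl41 were named after their values were seen. Tables and figures were made with Python, pandas and matplotlib. Some genes are not reported here, in the text or in plots of single genes.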

Additional observations from a re-analysis of the deposited data

Results flagged for a closer look

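Among 117 groups of 4 libraries (39 measures in 3 compounds), 9 had a library far from the other 3 of its compound by Dixon's criterion, and chance flags about 5% of groups. In TMM-scaled CPM, Rpl14 was 282 with picoxystrobin at 30 nM against 276 to 277 in the others, a narrow group, and 245 with trifloxystrobin at 300 nM against 269 to 271. Rpl32 was 462 with picoxystrobin at 300 nM against 453 to 454. Rps16 was 8.20 with picoxystrobin at 1000 nM against 9.14 to 9.28. With trifloxystrobin, Rpl18 was 53.3 at 1000 nM against 58.4 to 58.8, Rpl39 was 108 at 300 nM against 85.0 to 86.5, Rplp1 was 676 at 30 nM against 733 to 736, and Rplp2 was 40.8 at 1000 nM against 35.1 to 35.7. Rpsa was 52.7 with pyraclostrobin at 1000 nM against 66.0 to 67.0.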

How the results depend on the processing

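Some counts of called members moved with the processing. By DESeq2 the members called were 4 (of 205 genes called) for picoxystrobin and 11 (of 921) for pyraclostrobin against DMSO, 2 (of 156) for the slope over 3 compounds, 7 (of 560) for the pyraclostrobin slope and 2 (of 225) for pyraclostrobin against trifloxystrobin. Without a filter on low counts, over 30839 genes, they were 3 (of 210 genes called) for picoxystrobin, 8 (of 1195; 5 members higher, 3 lower) for pyraclostrobin, 3 (of 374) for the slope over 3 compounds, 1 (of 312) and 5 (of 1012) for the picoxystrobin and pyraclostrobin slopes, 4 (of 808) for pyraclostrobin against trifloxystrobin, and 1 (of 225) and 3 (of 442) at 300 and 1000 nM. Without picoxystrobin at 1000 nM they were 23 (of 2664 genes called) for picoxystrobin, 14 (of 1246) for pyraclostrobin, 13 (of 1306) for the pyraclostrobin slope and 7 (of 1293) for trifloxystrobin against picoxystrobin. With high against low concentrations the pyraclostrobin slope had 2 (of 477 genes called), and with the offset for GC content and length 6 (of 521). With that offset and without picoxystrobin at 1000 nM, an alternative added after seeing the data, 9 (of 181 genes called) were called for picoxystrobin and 19 (of 1277) for the pyraclostrobin slope.

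The offset moved the medians against DMSO to 0.079 for azoxystrobin and 0.060 for pyraclostrobin, to 0.10 at 100 nM, 0.082 at 300 nM and -0.0045 at 1000 nM, and that of pyraclostrobin against trifloxystrobin to -0.016. With picoxystrobin at 1000 nM also left out these were the same, except 0.0015 at 1000 nM and -0.060 for pyraclostrobin against picoxystrobin. Library totals alone gave 0.095 at 300 nM. Azoxystrobin at 100 nM, kept, gave a median of 0.10 and a share of 1.315%. The shares in DMSO, azoxystrobin, picoxystrobin, pyraclostrobin and trifloxystrobin were 1.353%, 1.567%, 1.444%, 1.523% and 1.441% without mitochondrially encoded genes in the total, and 1.875%, 2.173%, 2.07%, 2.17% and 2.021% with pseudogene rows added.

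With each library left out in turn, calls ranged from 0 to 23 for picoxystrobin, from 0 to 14 for pyraclostrobin, from 0 to 11 and 0 to 13 for their slopes, from 0 to 7 for trifloxystrobin against picoxystrobin and from 0 to 1 for pyraclostrobin against trifloxystrobin. The upper ends came without picoxystrobin at 1000 nM, except for the picoxystrobin slope (without 300 nM) and the last pair (without trifloxystrobin at 100 nM). At these upper ends 2664, 1246, 970, 1306, 1293 and 234 of all genes were called, in the same order. Medians ranged from 0.054 to 0.13 for trifloxystrobin, from 0.12 to 0.19 at 100 nM, from 0.078 to 0.17 at 300 nM and from 0.012 to 0.082 at 1000 nM. Of 990 recomputed changes of 37 named gene and compound pairs, 0 reversed, 27 lost and 43 gained a call. The cause of these moves was not tested. The 3 pairs of compounds were compared with concentration as a block. Without it 0 members were called in each pair and the medians were 0.043, -0.036 and 0.072. DMSO has no concentration, so no such block could be fitted against it. The test that slopes differ was not run in DESeq2. Members near 10 CPM have the least depth.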
